A study of Mus musculus with 60 samples.

Results

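The stretches described here are gaps that open inside lamin B1 domains of wild-type (WT) mouse hippocampus when the domains of R6/1 mice are laid over them. A gap is a run of 37 kb bins that lie in a WT domain, lie outside every R6/1 domain, and have an R6/1 domain overlapping that same WT domain on the left and on the right. The rule was met by 1352 of 66831 autosomal bins, among 25540 autosomal bins in WT domains. These bins formed 15 gaps with a total length of 50.0 Mb, in 14 of the 134 autosomal WT domains. The bins were chosen from the 2 deposited domain lists, so the loss of the lamin B1 call is the rule and not a finding.

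R6/1 mice carry a transgene with exon 1 of human huntingtin and an expanded CAG repeat, and serve as a model of Huntington's disease. All mice were 30 weeks old and of a mixed CBA and C57BL/6 strain background, and the WT mice lacked the transgene. Lamin B1 domains came from chromatin immunoprecipitation with input, with hippocampi of 5 mice pooled in each of 3 replicates of a genotype, and were deposited as 1 list per genotype. A difference between the lists therefore has no replicate spread. RNA was sequenced from 9 WT and 9 R6/1 hippocampi.

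Lamina-associated domains are large blocks of chromatin held at the nuclear lamina, the protein mesh under the inner nuclear membrane, of which lamin B1 is a main component. They are typically poor in genes and GC, and most genes in them are silent, while genes in the stretches between them are more often active. Long neuronal genes often lie in or beside such domains. Loss of lamin B1 contact at a locus has been seen in other systems both with and without a change in transcription of the genes there.

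Base composition around gene starts is shown for 6 gap genes, as the 250 bases before the annotated start, read from build NCBIM37 and written 5′ to 3′ on the strand of the gene, with each CpG dinucleotide in capitals. Shox2 (chr3:66785694-66785943, minus strand) had the largest increase among gap genes, and Morf4l1 (chr9:90009659-90009908, minus strand) was the most expressed gene of the longest gap. Prss35 (chr9:86636184-86636433, plus strand) and Lxn (chr3:67267849-67268098, minus strand) had 2 of the 3 largest decreases. Syt1 (chr10:108448039-108448288, minus strand) was the most expressed gene of its gap, and Olfr263 (chr13:21224317-21224566, plus strand), an olfactory receptor gene, was listed at 0 in every library.
Shox2: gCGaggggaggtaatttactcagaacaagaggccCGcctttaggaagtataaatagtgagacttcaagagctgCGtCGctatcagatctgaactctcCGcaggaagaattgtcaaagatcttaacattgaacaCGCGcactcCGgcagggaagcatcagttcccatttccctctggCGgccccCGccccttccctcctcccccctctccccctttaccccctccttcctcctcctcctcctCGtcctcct
Morf4l1: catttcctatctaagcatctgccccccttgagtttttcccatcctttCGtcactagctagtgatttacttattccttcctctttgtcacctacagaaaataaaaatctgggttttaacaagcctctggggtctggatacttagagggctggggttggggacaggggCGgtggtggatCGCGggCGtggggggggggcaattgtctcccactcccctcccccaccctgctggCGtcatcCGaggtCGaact
Prss35: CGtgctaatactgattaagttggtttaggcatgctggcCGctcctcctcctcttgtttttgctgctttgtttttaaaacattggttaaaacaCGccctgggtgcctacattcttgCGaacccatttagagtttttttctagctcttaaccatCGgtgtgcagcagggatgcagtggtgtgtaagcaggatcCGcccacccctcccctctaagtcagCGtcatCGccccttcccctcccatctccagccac
Lxn: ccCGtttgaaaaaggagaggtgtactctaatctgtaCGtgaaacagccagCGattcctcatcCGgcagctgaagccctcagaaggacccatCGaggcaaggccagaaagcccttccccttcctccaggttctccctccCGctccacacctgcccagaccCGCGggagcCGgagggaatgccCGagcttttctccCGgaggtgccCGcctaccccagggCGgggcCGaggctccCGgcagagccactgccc
Syt1: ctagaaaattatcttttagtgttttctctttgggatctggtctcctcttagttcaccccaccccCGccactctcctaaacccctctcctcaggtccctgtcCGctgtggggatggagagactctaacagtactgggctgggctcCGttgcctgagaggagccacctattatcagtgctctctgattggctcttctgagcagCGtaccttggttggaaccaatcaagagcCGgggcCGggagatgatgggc
Olfr263: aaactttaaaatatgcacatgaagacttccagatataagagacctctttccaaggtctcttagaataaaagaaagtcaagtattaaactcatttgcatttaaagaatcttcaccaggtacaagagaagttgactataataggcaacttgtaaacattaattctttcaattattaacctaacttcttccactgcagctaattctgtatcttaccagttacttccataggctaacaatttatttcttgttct

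The 6 stretches held 11 CpG (Shox2), 8 (Morf4l1), 8 (Prss35), 15 (Lxn), 6 (Syt1) and 0 (Olfr263). The Olfr263 stretch had a GC content of 31.2%, against 64.4% for Lxn. Over all 347 protein-coding gap genes, the median was 11 CpG in these 250 bases. It was 15 for the 240 that averaged at least 0.5 RPKM (reads per kilobase, scaled for depth) over the 18 libraries and 3 for the 65 under that level. Among protein-coding genes in the sequence of the same WT domains that stayed in an R6/1 domain, called retained sequence here, the medians were 11 for 154 genes at or above 0.5 RPKM and 1 for 146 genes below it. The medians were 8 over all 22362 protein-coding genes with a sequenced stretch and 14 over the 13360 at or above 0.5 RPKM. Gap genes at or above 0.5 RPKM were thus close to all genes at that level in CpG count before the start, and those below it were CpG-poor. Genes without a matched expression value were in neither group, and genes under 0.5 RPKM need not be silent.

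Searched on both strands, the letters TATAAA, the core of the TATA box, were in 13.8% of the stretches before gap genes and in 12.3% of all, and of the printed stretches that of Shox2 holds them. The letters TGACGTCA, the palindromic cAMP response element, were in 3.17% and 1.91%, and CACGTG, an E-box that factors such as Bhlhe40 can bind, were in 4.90% and 6.52%. The 6 printed stretches hold neither of these.

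The fragmented WT domains were long. Their median length was 15.1 Mb (6.11 to 27.5 Mb), against 4.03 Mb for the other autosomal WT domains. The rule needs R6/1 domains on both sides of a gap within the same WT domain, which short domains can hardly meet. This contrast in length is therefore in part set by the rule. Of the 29 autosomal WT domains of at least 10 Mb, 11 were fragmented. The gaps were 0.333 to 7.44 Mb long, with a median of 2.74 Mb, and took 23.2% of the 215 Mb in fragmented domains. They made up 32.5% of the 154 Mb of autosomal sequence that was in a WT domain and in no R6/1 domain. The rest lay at trimmed ends and in WT domains lost whole.

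**Figure D1:**
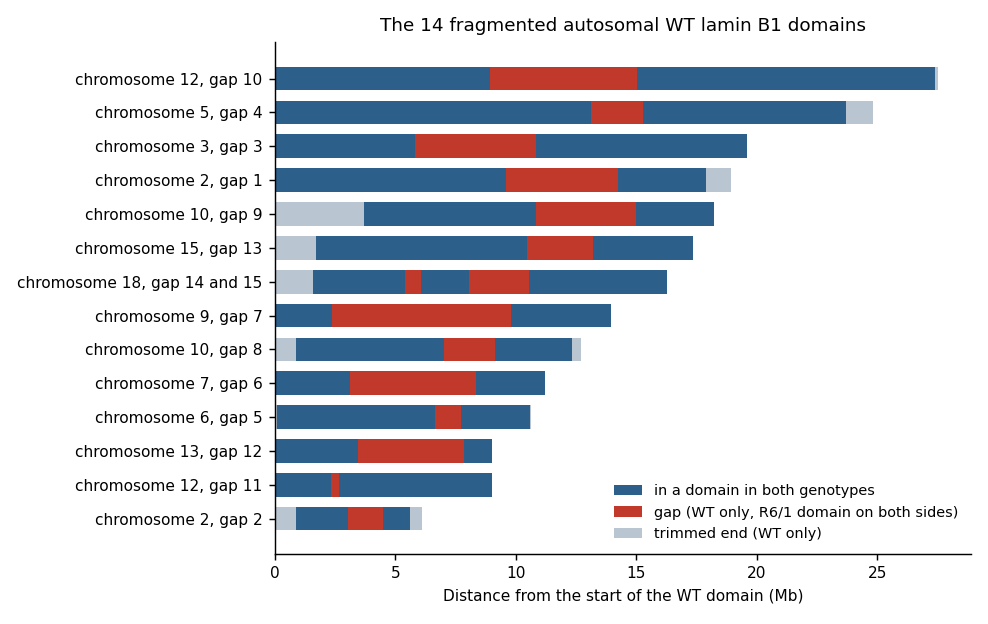
Each bar is a fragmented WT domain, with distance from its start in Mb on the x axis, sorted by length; blue marks sequence in a domain in both genotypes, red a gap and grey a trimmed end. The 15 gaps lie inside 14 domains, the domain on chromosome 18 holding 2, and gap 7 is the longest at 7.44 Mb.

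The longest gap, gap 7 (chr9:82732001-90169000), took 53.3% of its WT domain (chr9:80364001-94313000). Gap 10 (chr12:51615001-57720000, 6.11 Mb) lay inside the longest fragmented domain (chr12:42698001-70226000, 27.5 Mb). Gap 6 (chr7:95053001-100270000, 5.22 Mb) holds all of Dlg2, a gene of 1950 kb. Gap 3 (chr3:64898001-69930000, 5.03 Mb) and gap 1 (chr2:48655001-53317000, 4.66 Mb) completed the 5 longest, and they lay in WT domains at chr3:59089001-78699000, chr2:39072001-58016000 and, for gap 6, chr7:91945001-103156000. In 3 cases the gap was longer than both of the R6/1 pieces of the domain beside it, and the shortest such piece was 1.15 Mb.

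Gaps differed in sequence from the rest of their own domains. Their GC content was 41.1%, against 38.0% in retained sequence of the same domains, and it was higher in the gap in 15 of 15 cases (SD of the difference over gaps 1.43 percentage points). Against the retained bins within 10 bins of a gap alone, the difference was 1.66 in place of 3.09 percentage points. The observed-to-expected CpG ratio was 0.198 against 0.153 and was higher in 15 of 15. Sequence in no domain of either genotype was higher on both measures, with 44.1% GC and a CpG ratio of 0.210. Trimmed ends of the same domains had 39.3% GC and a CpG ratio of 0.181, and WT domains lost whole had 39.4% and 0.158. The gaps therefore lay between retained lamina sequence and sequence outside domains. Sequence in an R6/1 domain and in no WT domain had 41.0% GC and a CpG ratio of 0.165, so the GC level was not particular to gaps.

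Gene content differed in the same way. Gaps held 11.5 annotated gene starts per Mb (575 in all), against 4.93 in retained sequence of the same domains and 17.9 in sequence in no domain. Trimmed ends of the same domains held 8.43, WT domains lost whole 6.95 and sequence in R6/1 domains alone 15.1. Starts were denser in the gap than in retained sequence in 13 of 15 cases (SD of the difference 5.53 per Mb). The exceptions were gap 6 on chromosome 7 and gap 13 on chromosome 15. Against the retained bins within 10 bins of a gap, the difference was 3.75 in place of 6.56 starts per Mb. Protein-coding starts numbered 6.94 per Mb in gaps and 2.16 per Mb in retained sequence, and were denser in the gap in 14 of 15. Of 334 gap genes in the expression table, 249 (74.6%) averaged at least 0.5 RPKM and are called expressed here. In retained sequence 163 of 325 (50.2%) did, and in no domain 69.2% did. In trimmed ends of the same domains 67.3% did and in WT domains lost whole 68.6%, so a high share was not particular to gaps. In sequence in R6/1 domains alone 22.4% did. The share was higher in the gap than in retained sequence in 15 of 15 cases (SD of the difference 21.9 percentage points). The difference ran from 2.03 points in gap 10 to 76.28 in gap 6, where 3 of 36 retained genes were expressed. Gaps 14 and 15 lie in the same WT domain and share its retained genes. Against the nearby retained bins the pooled difference was 47.1 in place of 24.4 percentage points.

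**Figure D2:**
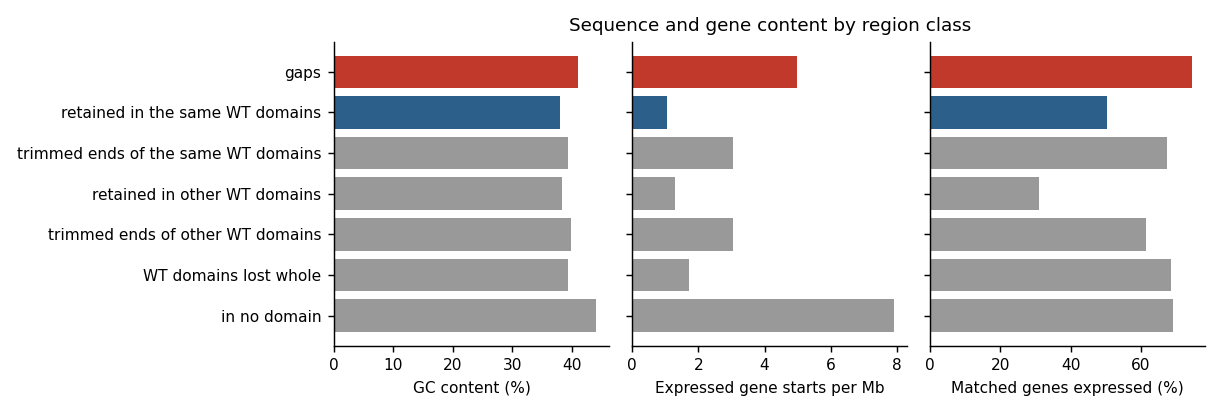
Bars give GC content in percent, expressed gene starts per Mb and the percentage of matched genes that averaged at least 0.5 RPKM, for gaps (red), retained sequence of the same WT domains (blue) and 5 other classes (grey). Gaps had 4.98 expressed starts per Mb, against 1.06 in retained sequence of the same domains and 7.92 in no domain.

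Once expressed, gap genes were expressed at a middling level. The median of the 249 expressed gap genes was 7.27 RPKM, against 7.29 for the 163 in retained sequence and 9.01 for those in no domain. The larger difference was in expressed starts per Mb, 4.98 in gaps and 1.06 in retained sequence. Trimmed ends of the same domains had 3.06 and WT domains lost whole 1.72. Bodies of expressed genes covered 41.6% of gap sequence, 18.1% of retained sequence and 40.1% of sequence in no domain. They covered 36.4% of WT domains lost whole and 26.5% of trimmed ends of the same domains. Even so, 215 of the gap bins (15.9%) held an expressed start, and each gap had a run without one, of 0.185 to 2.0 Mb in the longest instance per gap. The 2.0 Mb run was in gap 6, which holds Dlg2.

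The change of gene content at the gap borders was abrupt, while that of GC was gradual. The 30 last retained bins held 1 expressed start, and the 30 first gap bins held 16, spread over 11 borders. This is 0.901 per Mb on the retained side and 14.4 per Mb on the gap side. The next bins of the gap, up to 5 bins from the border, brought the mean to 6.67 per Mb. GC content was 38.3% at 11 to 20 bins into retained sequence, 39.0% at 6 to 10, 39.9% at 1 to 5 and 41.2% in the first 5 gap bins. It was 41.3% at bins 11 to 20 of the gap. First gap bins had a higher GC content than last retained bins at 24 of 30 borders.

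**Figure D3:**
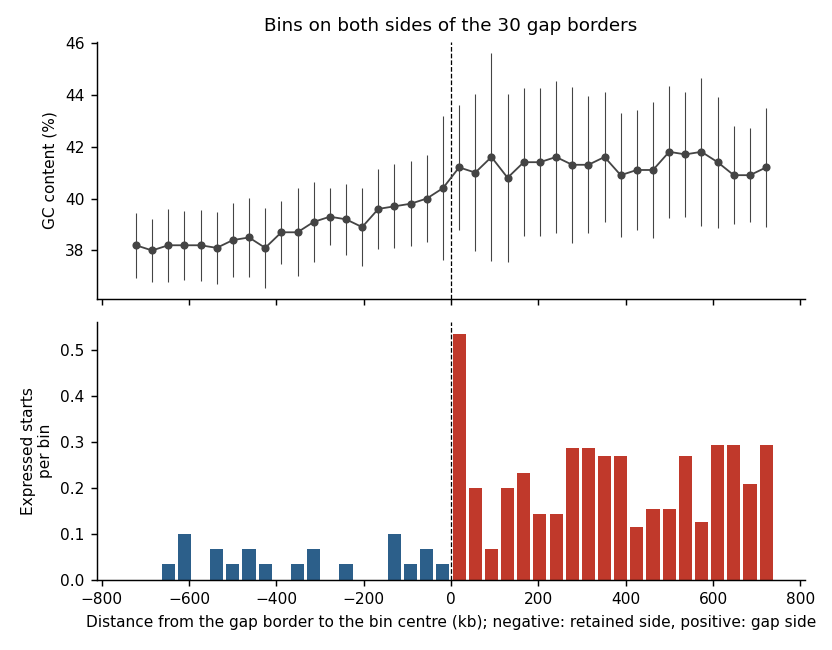
Points give the mean GC content in percent (error bars are the SD over borders) and bars the number of expressed gene starts per 37 kb bin, by distance in kb from the gap border, with retained sequence to the left and gap sequence to the right. GC rises towards the border from 38.3% to 39.9%, and the first gap bin holds 16 expressed starts over 30 borders against 1 in the last retained bin.

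Outer ends of the same R6/1 domains had a step as well, so it was not particular to the gaps. At the 28 outer ends, the last bin inside held 0 expressed starts and the first bin beyond held 10, at 9 ends. Of the 30 gap borders, 12 were within 37 kb of an expressed start, and the median distance was 51.9 kb. A border ran through a protein-coding gene in 8 cases: Scn1a and Grm5 (a sodium channel and a metabotropic glutamate receptor), Irak1bp1, Ros1, Otogl, Prkd1, Tshr and 5033411D12Rik.

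Expression of the genes in the gaps was then compared between genotypes. RNA-seq depth was 12299435 to 16457027 reads on genes in WT libraries and 13260311 to 16736544 in R6/1 libraries. Each tested gene was compared with limma on log2(RPKM + 0.5) over all 14446 tested genes with Benjamini-Hochberg adjustment, as R6/1 minus WT. That scale understates the change of low genes, and adjusted p-values below are from this fit. Whole-hippocampus RNA cannot tell fewer cells of a type from less RNA per cell. All 10 hippocampal neuron markers examined were called lower in R6/1 (summed level 1190 to 1410 RPKM in WT, 550 to 673 in R6/1). So were 5 of 5 interneuron, 4 of 5 astrocyte, 4 of 5 oligodendrocyte, 3 of 5 microglia and 1 of 4 endothelial markers. The remaining members of these lists did not pass the test, and 23.5% of all tested genes were called lower. None of these lists had a member at 0 in every library, and their part in the results below was not tested.

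Gap genes did not move in 1 direction in R6/1. Of 249 tested gap genes, 66 were called higher (26.5%) and 47 lower (18.9%) in R6/1, and 136 did not pass the test. Over all tested genes 48.3% were called, 24.8% higher and 23.5% lower, so that the share of gap genes called, 45.4%, was near the background. Most changes were small: 96 of the 113 called genes changed by under 0.5 on the log2 scale, and 2 changed by 1 or more. The median log2 fold change of gap genes was 0.035, beside 0.0036 over all tested genes and 0.0095 for genes of retained sequence in the same domains. The SD over libraries of the median deviation of gap genes was 0.0172. Scaling each library to its own total of reads gave 97 higher and 36 lower and raised the share of higher among gap calls from 58.4% to 72.9%. It moved all tested genes as well, of which 35.4% were then higher and 17.5% lower, and the share of higher among all calls went from 51.4% to 66.9%. Quantile normalization gave 65.9% for gap genes and 58.3% for all.

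The genotypes did not overlap in 12 gap genes that were higher and 13 that were lower, which is 10.0% of those tested, against 11.9% of all tested genes. The median gap gene in a WT library was at 2.91 to 3.04 on the log2(RPKM + 0.5) scale (median library 2.95), and in an R6/1 library at 2.87 to 3.04 (median 2.99). The ranges overlapped. Genes of retained sequence were at 2.76 to 3.05 in WT and 2.81 to 3.05 in R6/1, and genes in no domain at 3.21 to 3.25 and 3.22 to 3.25. In the authors' deposited table an adjusted p is given for 289 gap genes, of which 66 were called higher and 47 lower, and 110 were called in both analyses, all in the same direction. The share called over all genes there was 40.4%.

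**Figure D4:**
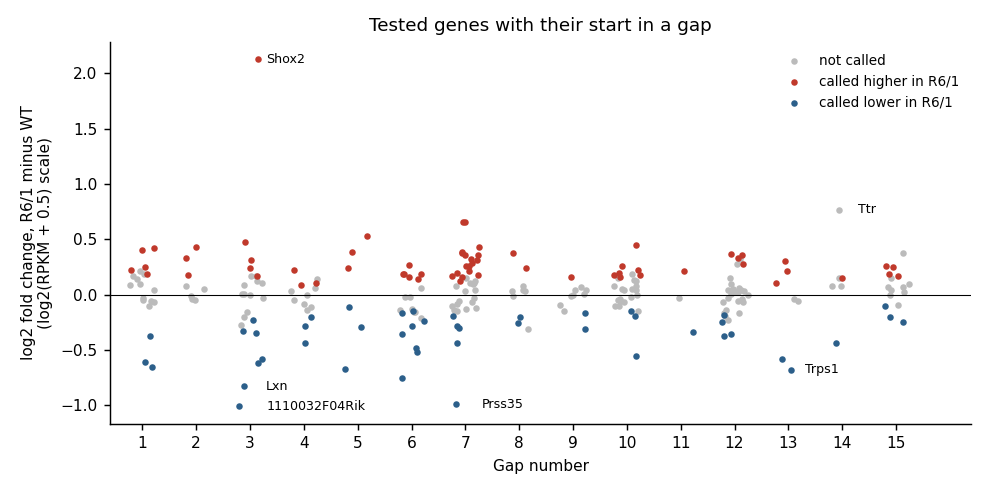
Each point is 1 of the 249 tested gap genes, by gap number on the x axis and log2 fold change (R6/1 minus WT) on the y axis; red and blue points were called higher and lower by limma and grey points were not called. Most points lie within 0.5 of 0. Genes called in both directions are in 14 of 15 gaps, beside 24.8% called higher and 23.5% lower over all tested genes.

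Gaps differed in the balance of directions, and 14 of 15 held calls of both kinds. Over all tested genes 24.8% were called higher and 23.5% lower, so calls of both kinds were not particular to gaps. In gap 7, 18 of 40 tested genes were called higher and 5 lower, with a median log2 fold change of 0.11. In gap 6, 6 of 22 were higher and 8 lower, with a median of -0.15. In gap 3, 5 of 24 were higher and 7 lower. Gap 2, with 8 tested genes, had 3 higher and 0 lower. These splits are descriptions of neighbouring genes, which share a region, and no test was made of them.

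The largest increase among gap genes was that of Shox2, a homeobox transcription factor of limb and heart development, in gap 3. WT libraries were at 0 to 7.70 RPKM with a median of 0.207, and R6/1 libraries at 2.74 to 4.83 with a median of 3.81 (log2 fold change 2.13, SE 0.39, limma adjusted p 0.00014). WT replicate 6, at 7.70 RPKM, was above every R6/1 library, and the other 8 WT libraries, the highest at 1.36, were below every R6/1 library. Without that library the log2 fold change rose to 2.51, and with a pseudocount of 0.1 it was 3.17. The authors' deposited table gives Shox2 a log2 fold change of 0.39 with an adjusted p of 0.102, so the call does not hold there. The fold changes of the 2 analyses come from different models and are not like measures. Those of Ttr, also uneven between libraries, were 0.08 there and 0.77 here. Shox2 overlaps Rsrc1 on the opposite strand, and how strand entered the counting is not given in the sources used here.

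Other increases among tested gap genes were smaller. Otogl, in gap 9, averaged 0.346 RPKM and so was not tested. It was at 0.107 to 0.254 RPKM in WT and 0.322 to 0.607 in R6/1, without overlap, on 10 to 70 reads in a library. Sumf1, the enzyme that activates sulfatases, was at 8.08 to 12.3 RPKM in WT (median 9.29) and 12.8 to 14.9 in R6/1 (median 13.7), a rise of 0.53 on the log2 scale (SE 0.063, limma adjusted p 9.81e-07). Every R6/1 library was above every WT library. Ube2cbp, a ubiquitin pathway gene, went from 0.775 ± 0.170 to 1.51 ± 0.272 RPKM (mean ± SD, n = 9 each), also without overlap. Ankrd34c, Il12a (a subunit of interleukin-12), Nfkbia (the inhibitor of NF-kappa-B) and Rwdd2a rose by 0.66, 0.48, 0.45 and 0.43 on the log2 scale, with genotypes that overlapped. Stam2, of endosomal sorting, rose by 0.40 without overlap. Il12a was low in both genotypes, at 0.234 to 0.708 RPKM in WT and 0.505 to 0.930 in R6/1.

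A pair of neighbouring sodium channel genes in gap 2 rose together. Scn3a, which encodes a channel typical of the developing brain, was at 7.55 to 9.67 RPKM in WT (median 8.13) and 10.4 to 13.1 in R6/1 (median 11), without overlap (log2 fold change 0.43, SE 0.057, limma adjusted p 3.32e-06). Scn2a, a main sodium channel of excitatory neurons, was at 36.5 to 45.9 in WT and 43.2 to 52.1 in R6/1, and rose by 0.18 with overlap. Csrnp3, next to it, rose by 0.33. The border of this gap runs through Scn1a.

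Morf4l1, a subunit of histone acetyltransferase complexes, was the most expressed gene of gap 7, at 119 to 141 RPKM in WT (median 122) and 144 to 170 in R6/1 (median 162), without overlap (log2 fold change 0.36, SE 0.038, limma adjusted p 2.04e-07). Epc2, of the NuA4 acetyltransferase complex, rose by 0.42 (11.1 to 13.9 RPKM in WT, 14.9 to 19.1 in R6/1), also without overlap. Mbd5, a methyl-CpG-binding domain protein, rose by 0.25. Other genes of chromatin proteins, named after their values were seen, went both ways: Rad21, a cohesin subunit, rose by 0.21 and Eed, a subunit of Polycomb repressive complex 2, by 0.19, while Hmgn3, a nucleosome-binding protein, fell by 0.30, and Rif1 and Ino80c, at log2 fold changes of 0.10 and 0.04, did not pass the test.

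The largest decrease was that of 1110032F04Rik, an uncharacterised gene in gap 3, which had 3.71 to 6.17 RPKM in WT (median 4.30) and 1.68 to 2.75 in R6/1 (median 1.90). Its log2 fold change was -1.01 (SE 0.087, limma adjusted p 1.36e-08). Prss35, a serine protease-like gene in gap 7, was at 2.38 to 4.61 RPKM in WT (median 3.39) and 1.25 to 1.62 in R6/1 (median 1.39), a log2 fold change that came to -0.99 (SE 0.095, limma adjusted p 6.1e-08). In both genes every R6/1 library was below every WT library. Lxn, which encodes latexin, an inhibitor of carboxypeptidases, was at 33.0 to 40.2 RPKM in WT (median 34.6) and 14 to 21.9 in R6/1 (median 20.5), the most significant decrease of the 3 (log2 fold change -0.83, SE 0.066, limma adjusted p 4.02e-09). Lxn lies within Gfm1, which is on the opposite strand and had 16 RPKM in both genotypes. Rarres1, the gene beside Lxn and a relative of it, fell by 0.62, to 0.584 ± 0.135 from 1.16 ± 0.124 RPKM.

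Bhlhe40, a basic helix-loop-helix repressor of the circadian clock, was at 23.8 to 36.3 RPKM in WT (median 31.2) and 16 to 22.9 in R6/1 (median 18.5), without overlap (log2 fold change -0.67, SE 0.077, limma adjusted p 6.75e-07). Trps1, a GATA-type repressor, fell by 0.68 (5.38 to 6.95 RPKM in WT, 3.36 to 4.49 in R6/1), and Npas3, a factor of neuronal development with a body of 823 kb, by 0.55 (2.79 to 3.81 in WT, 1.71 to 2.56 in R6/1). Neither gene overlapped between genotypes. Prss23, a serine protease, fell by 0.75 and Trim59 by 0.58.

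Syt1, the calcium sensor of synaptic vesicle release, was the most expressed gene of gap 9. It was at 346 to 440 RPKM in WT (median 403) and 297 to 340 in R6/1 (median 323), a log2 change of -0.31 (SE 0.049, limma adjusted p 2.4e-05). Kif5c, a neuronal kinesin motor, was at 161 to 194 RPKM in WT (median 180) and 131 to 149 in R6/1 (median 141), with -0.37 (SE 0.036, limma adjusted p 8.35e-08). Both were without overlap between genotypes. Lypd6 and Lypd6b, modulators of nicotinic receptors that follow Kif5c on chromosome 2, fell by 0.65 and 0.61.

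Stim2, a sensor of calcium in the endoplasmic reticulum, fell by 0.44 (25.1 to 35.7 RPKM in WT, 19.3 to 27.3 in R6/1). Dlg2, the postsynaptic scaffold PSD-93, fell by 0.24 and Amph, amphiphysin of vesicle endocytosis, by 0.25. Genotypes overlapped in these 3 genes. Further neuronal and vesicle genes, named after their values were seen, went both ways. Itpr1, a calcium release channel of the endoplasmic reticulum, fell by 0.29 (54.4 to 81.7 in WT, 45.5 to 65.5 in R6/1) and Kcnab1, a potassium channel subunit, by 0.35, while Rasgrf1 rose by 0.17 and Picalm, a clathrin assembly protein, by 0.16. Snap91, a relative of Picalm (mean 100 RPKM in WT and 98.2 in R6/1), Cacnb4, Lgi2 and Pln, a regulator of the calcium store pump, did not pass the test.

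**Figure D5:**
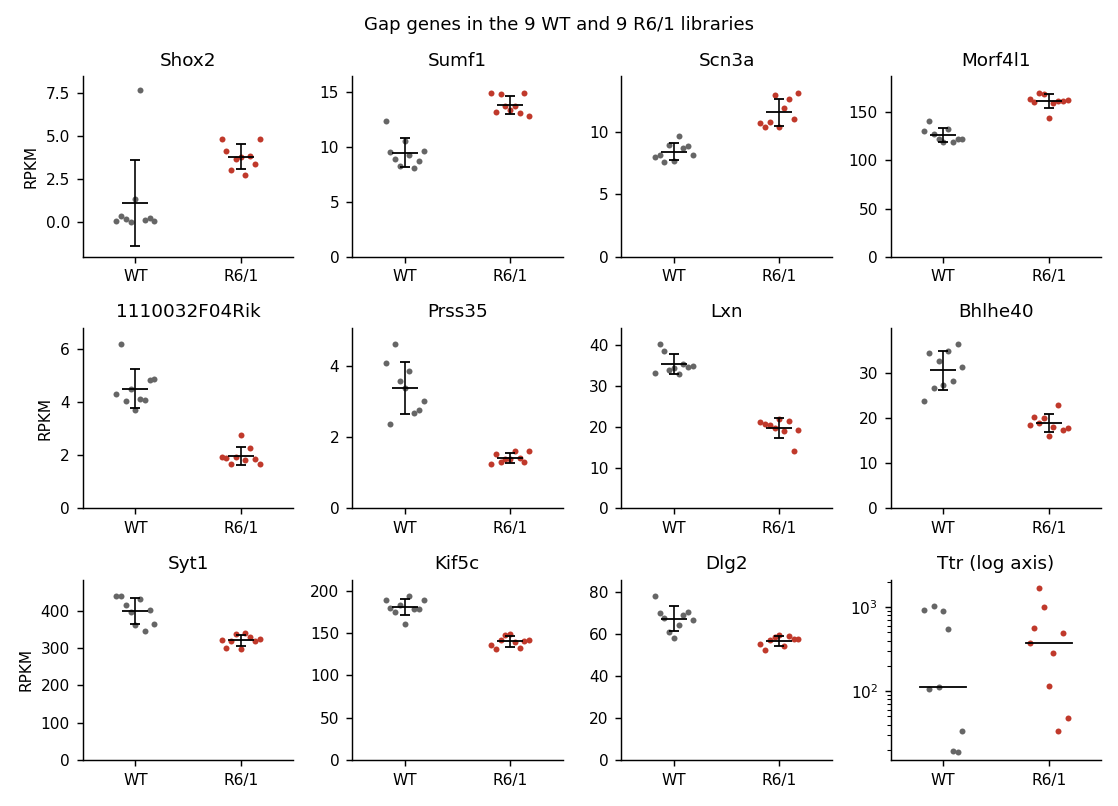
Each point is the RPKM of 1 library, with 9 WT libraries in grey and 9 R6/1 libraries in red, and horizontal bars with whiskers give the mean and SD (for Ttr, on a log axis, the bar is the median). WT replicate 6 stands apart for Shox2, and Sumf1, Scn3a, Morf4l1, Lxn, Prss35, Bhlhe40, Syt1 and Kif5c are separated by genotype.

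In some gaps, neighbouring genes were called in opposite directions, beside 24.8% called higher and 23.5% lower over all tested genes. In gap 1, Epc2 rose by 0.42, and Kif5c, the next gene on the same strand, fell by 0.37, followed by Lypd6b and Lypd6 with decreases and Mmadhc with an increase of 0.19. In gap 5, Setmar and Sumf1 rose by 0.39 and 0.53, and Itpr1 and Bhlhe40 beside them fell by 0.29 and 0.67. In gap 7, Ube2cbp, Dopey1, Pgm3 and Rwdd2a stood in a row, all called higher. Prss35 was called lower less than 1 Mb away, beyond Me1, which was not called, and A330041J22Rik, which rose by 0.29. These stretches were picked after their values were seen. Pgm3 and Dopey1 overlap on opposite strands.

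Long gap genes were called about as often as other genes of their length. Of the 57 tested gap genes longer than 100 kb, 12 were called higher (21.1%) and 19 lower (33.3%). Over all 2062 tested genes of that length 19.9% were higher and 32.5% lower, so gap genes were near their length class. Among the longest gene of each of the 5 longest gaps, Bckdhb (199 kb, a branched-chain ketoacid dehydrogenase subunit) rose by 0.26 and Mbd5 (373 kb) by 0.25, while Npas3, Dlg2 (1950 kb) and Schip1 (562 kb) were called lower, and Schip1 fell by 0.33 on the log2 scale.

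The most expressed genes of the gaps had log2 fold changes between -0.44 (Stim2) and 0.77 (Ttr, which did not pass the test). Ssr3, of the translocon, rose by 0.24 (56.0 to 76.8 RPKM in WT, 68.8 to 83.4 in R6/1), Psma6, of the proteasome, by 0.16 and Eif3h, of translation initiation, by 0.11. Arl8b, a small GTPase of lysosome transport, fell by 0.11 on the log2 scale (limma adjusted p 0.0381), and 11 of the 18 fits that each leave out 1 library gave no call (adjusted p up to 0.0732, without R6/1 replicate 7). Nus1, Sel1l and Celf4 did not pass the test, at log2 fold changes of 0.03, -0.03 and 0.07. Celf4, an RNA-binding protein of neurons, passed it without WT replicate 1 (adjusted p 0.0396). Ttr (transthyretin, a choroid plexus product) was at 19.0 to 1040 RPKM in WT and 33.4 to 1700 in R6/1 and did not pass (adjusted p 0.51). The 7 choroid plexus markers, Ttr among them, summed to 25.6 to 1070 RPKM in WT and 38.4 to 1740 in R6/1. None of the 7 was at 0 in every library, and most of each sum was Ttr. The other 6 markers summed to 6.13 to 38.4 RPKM in WT and 4.97 to 47.4 in R6/1. Of the 6 libraries with the most Ttr, 5 were also among the 6 highest for the other 6 markers.

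Gene families were counted by the start of their symbols. Gap 12 on chromosome 13 holds the 12 olfactory receptor genes of the gaps, sensory receptors expressed mainly in the nose, of which 11 were listed at 0 in every library and none reached 0.5 RPKM. At this depth a gene listed at 0 may still have up to 3 reads in a library by counting error alone. Of 11 zinc finger genes, 10 were tested, with Zfp184 and Zfp24 called higher by 0.36 and 0.26 and Zkscan4 lower, with a log2 fold change of -0.36, beside 24.8% higher and 23.5% lower over all tested genes. The replication-dependent histone genes of the Hist1 cluster, looked at after values were seen, numbered 23, with 5 at 0 in every library. None averaged above 1.55 RPKM over the 18 libraries. Of the 12 tested, 0 were called higher and 1 lower, beside 24.8% and 23.5% of all tested genes. The gene called lower was Hist1h2bj (1.57 ± 0.274 to 1.12 ± 0.323 RPKM, with at most 13 reads in a library). Histone, Srp54, Trim43 and Bcl2a1 genes have near-identical copies in these gaps, and their values are uncertain. By the symbol starts searched, which miss genes such as Itpr1, Cckar and Cdk13, channels and kinases numbered 4 (Cacnb4, Scn3a, Scn2a and Kcnab1) and 1 (Prkd1, which fell by 0.19 on the log2 scale); no symbol began like those of the transmitter receptors, or of the adhesion and guidance genes, searched for.

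Genes of the lamina and of its chromatin anchors were also compared. Of 30 in a list made for this comparison, all tested, 14 were called higher and 2 lower, beside 24.8% and 23.5% of all tested genes, with a median log2 fold change of 0.10. Scaled to own totals, 18 were higher and 1 lower, beside 35.4% and 17.5% of all. Lmnb1, the gene of lamin B1, was at 2.62 ± 0.247 RPKM in WT and 2.84 ± 0.183 in R6/1 (mean ± SD, n = 9 each) and did not pass the test (log2 fold change 0.10, limma adjusted p 0.141), nor did Lbr, the lamin B receptor (0.12, 0.0635), and Lmna (0.09, 0.23). Suv39h1, a histone H3 lysine 9 methyltransferase of heterochromatin, rose by 0.50 and Zmpste24, the protease that processes prelamin A, by 0.37. Nrm, the inner membrane protein nurim, fell by 0.47.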

How the data were processed

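RNA-seq (stranded messenger RNA libraries) and lamin B1 ChIP-seq of mouse hippocampus were collected, per the labels' protocols; ChIP-seq and ATAC-seq reads were not analysed here. The authors deposited 1 EDD domain list per genotype with 1 score per domain, which was not used in a result, and RPKM values for 24508 gene symbols. Their deposited comparison table gives per gene a mean normalized count signal, a log2 fold change, a test score and a p-value, raw and adjusted. The submitters' processing notes name mm9, Bowtie, TopHat and DESeq2, without versions; how ChIP replicates were combined and the settings of EDD are not given in the sources used here. The members and lists were chosen with earlier results of these data known.

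Domains were laid on the 37 kb grid of build NCBIM37, and GC, CpG and gene starts were read from that genome and GENCODE vM1. Symbols were matched by name (20510) or RefSeq synonym of GRCm38.p6, used for names only (1755), 90.8% in all. Genes averaging 0.5 RPKM or more over the 18 libraries were tested with limma 3.58.1 (R 4.3.3) on log2(RPKM + 0.5) with a mean-variance trend, two-sided, threshold 0.05. The deposited RPKM were rescaled by the authors' mean normalized count. At least 99.853% of low values were then whole multiples of 1 step, within 0.05 of a read, which gave the reads per library. A value of 0 reads allows an expected count of up to 3 by counting error alone, which is all that intervals cover. On simulated data the test recovered 30.6% of log2 changes of 0.3 and 91.8% of 0.6 among 14441 genes, with 5.39% of calls on genes left unchanged. Each of these sizes was given to 49 tested genes, a far smaller share than the 48.3% called in the data. All genes had the same setting of count spread, so these rates need not hold for the data. The bin rule was tested on made intervals. Named genes were the 10 largest increases and 10 largest decreases called in gaps, the most expressed gene of each gap and the longest gene of each of the 5 longest gaps; others named were chosen after their values were seen. Trps1 and Mapre2 share the first letters of channel and kinase symbols and were left out of those classes. Alternatives were other pseudocounts (0.1 and 1), filters, scalings, the replicate block, limma without trend, the authors' table, leaving out each library, and other definitions of gaps and gap genes; 0 columns of per-sample values were unused.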

Additional observations from a re-analysis of the deposited data

Results flagged for a closer look

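In 7 of the 78 groups of 9 libraries examined for named genes, 1 library stood apart from the other 8 (a gap to the nearest library above Dixon's 95% limit for 9 values); chance gives about 1 in 20, or 3.9 groups. Shox2 was at 7.70 RPKM in WT replicate 6 (363 reads), the next highest WT library being at 1.36, and the log2 fold change went from 2.13 to 2.51 when it was left out. Rwdd2a was at 12.5 RPKM in R6/1 replicate 5 (next 15.4), and its log2 fold change went from 0.43 to 0.47 without it. Morf4l1 was at 144 RPKM in the same library (next 160), with 0.36 and 0.38. 1110032F04Rik was at 6.17 RPKM in WT replicate 2 (next 4.86), with log2 fold changes of -1.01 and -0.95. Lxn was at 14 RPKM in R6/1 replicate 8 (next 18.9), with -0.83 and -0.77. Nus1 and Sel1l were at 31.5 and 50.5 RPKM in WT replicate 1 (next 27.6 and 42.7), and neither gene passed the limma test with or without it (adjusted p 0.146 and 0.922 without). The 5 genes called with all libraries were called without the library that stood apart. What set these libraries apart was not tested.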

How the results depend on the processing

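The counts of gap genes called were within 1.5 times of 66 higher and 47 lower under every alternative run. Leaving out each library gave 63 to 72 higher, 42 to 50 lower and a median log2 fold change of 0.024 to 0.039. The median moved to 0.064 under quantile normalization and to 0.089 when libraries were scaled by their own read totals, where the medians over all tested genes were 0.032 and 0.069. Against only the retained bins within 10 bins of a gap, the GC difference was 1.66 in place of 3.09 percentage points, the difference in gene starts 3.75 in place of 6.56 per Mb and the difference in the share expressed was 47.1 in place of 24.4; the comparison then rests on fewer bins. Of 502 comparisons of 39 named genes with an alternative, 488 kept direction and side of the threshold and no call reversed; 7 lost the call (Arl8b in 6, Shox2 in the authors' table), 4 gained it (Celf4 in 3, Nus1 in 1), and in 3 the log2 fold change of Sel1l, not called at -0.03, lost its sign (0.00) or turned (0.04). With the replicate number as a block, 69 genes were higher and 47 lower. The deviations of same-numbered libraries correlated at -0.053 to 0.237, and 2 of 9 pairs correlated best with their own number, so the numbers were not taken to pair the libraries. A fit by voom on the recovered reads (67 higher, 50 lower) and a run without gap 12, which holds the most gene starts (GC difference 3.15, starts 5.74 per Mb, share expressed 25.7), were chosen after seeing the data. The GC content outside repeats was not run, as the reference used does not mark them. With 1 domain list per genotype, the gap borders have no replicate error.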
